A study of Mus musculus with 66 samples.

Results

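Genes of antigen presentation, interferon signalling, complement and cytokine response, together with CD surface antigens, were examined in the cerebellum of C57BL/6 mice across ages and diets. The 42 genes were chosen by symbol alone: probes annotated with 1 gene whose symbol begins with H2-, Ifi, Ifn, Tlr, C1q, Cxc, Ccl, Ccr or Tnf, or with Irf, Il, Cd or Stat and a digit, 1 such gene being left out. They were measured by 47 of the 8448 probes and stand among 4209 named genes and 7782 tested features, a feature being a gene with its probes averaged or a probe without a single gene name. No signal filter was applied, so all 42 members were tested in every comparison. Each of 66 mice gave 1 nylon filter of spotted mouse cDNA clones, hybridized with radiolabelled cDNA made from its own total RNA, and whole cerebellum was used, so fewer cells of a type and less RNA per cell cannot be told apart. Calorie-restricted (CR) mice, brought down in steps to a final 60% of the regular ration, numbered 9, 10 and 8 at the ages of 6, 16 and 24 months, and mice fed ad libitum (AL) numbered 10, 10 and 9 at the same ages. A further 5 AL mice were in the third week (17 to 21 days) and 5 in the sixth week (33 to 44 days) of life. Both sexes were present in all groups, no group carried a transgene or a deleted gene, and CR males of the oldest group were all 673 days old whereas the AL males were 719 to 743 days old, so in males of that age diet and age cannot be told apart.

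In brain, microglia are the resident immune cells, and they make much of the C1q that opens the classical complement pathway. Class I molecules of the major histocompatibility complex (MHC) show peptides from inside the cell, class II molecules show peptides taken up from outside, and interferons act through receptors, Jak kinases, Stat proteins and interferon regulatory factors to switch on a common group of target genes. Many CD antigens are not restricted to leukocytes, and tetraspanins, adhesion proteins and Cd200 are made by neurons, glia and vessels as well.

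All values are Z scores, the signal of a probe in standard deviations of its own array with 0 at the mean of all probes. A difference is therefore in Z units and is not a fold change, and a Z score places a signal on the array without ordering the amounts of different transcripts, because clones differ in length and labelling. Of the 66 arrays, 3 correlated with the others at a median of 0.695, 0.701 and 0.820, against 0.921 or more in the other 63. They came from 1 male and 1 female CR mouse of 16 months and 1 female CR mouse of 24 months, and the comparisons below were fitted without them unless stated. On both 16-month arrays the probes at 1 of 22 repeating positions averaged -2.70 and -2.69, against 0.309 on the arrays kept. Cd63 is the member spotted there, with -3.30 and -3.80 on those arrays. Gene names stand for the probes as annotated: over 842 pairs of probes of the same gene, mean Z scores correlated at 0.112, and the Xist probe averaged -0.982 ± 0.149 in females (SD, n = 33) and -1.03 ± 0.157 in males (SD, n = 30). The Xist probe thus did not separate the sexes. Neither check bore out the annotation of the clones, so whether a probe measures the gene it is named for is uncertain throughout. The tissue label could be checked only in part, since of the marker lists used those of granule cells, oligodendrocytes, endothelium, choroid plexus and lymphocytes had 0 measured genes. The Purkinje cell probes measured were Calb1 and Car8, at -0.0150 and 0.841. The astrocyte probes Slc1a3 and Gja1 lay at 0.0348 and 1.09.

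The immune genes as a whole were spread over the range of signals much like the rest of the array. Their mean Z scores ran from -1.85 for Il17rc to 2.01 for Tnfaip1, and 20 of 42 lay above the mean signal (47.6%), against 48.7% of all features. Above the mean were 2 of 4 antigen presentation genes, 4 of 7 interferon genes, 2 of 3 complement genes, 7 of 10 cytokine genes and 5 of 18 surface genes. The spread of a member over the 63 arrays had a median SD of 0.156, and that of all features 0.166.

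**Figure D1:**
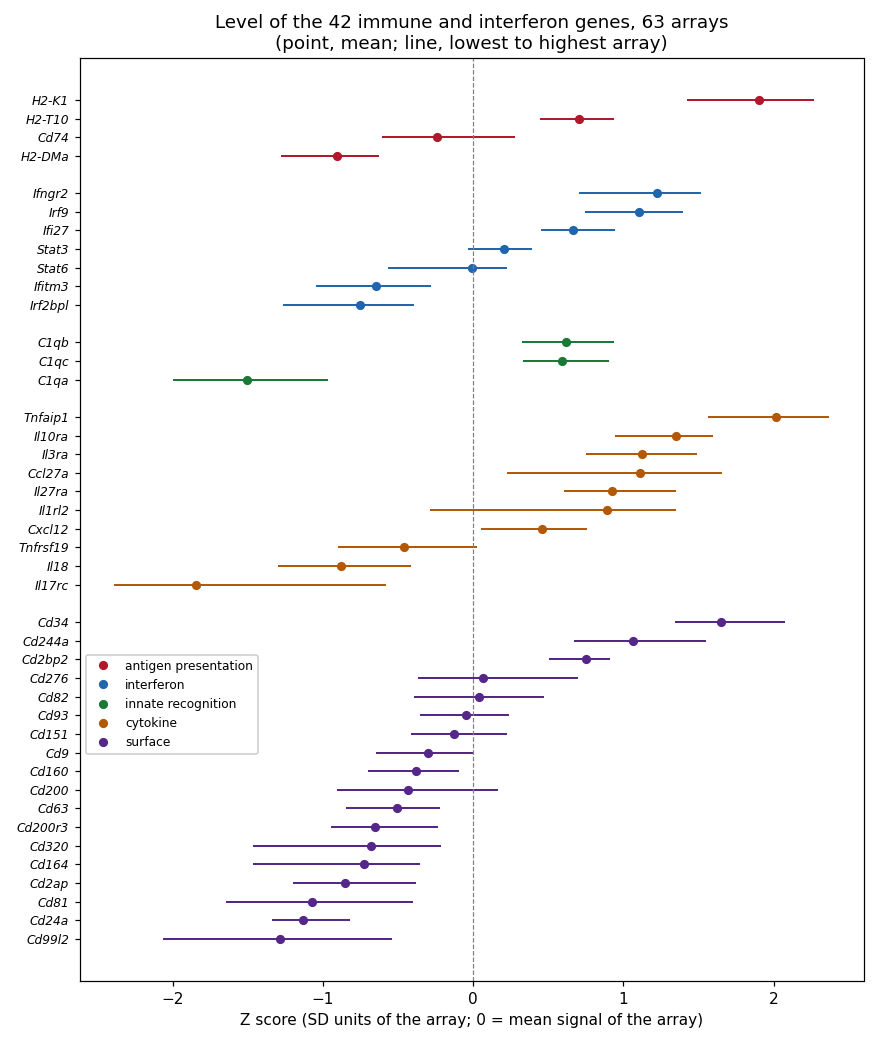
Mean Z score of each of the 42 members over 63 arrays (points), with the lowest and the highest array (lines), by class; the horizontal axis is in SD units of the array and 0 is the mean signal. Tnfaip1 (2.01) and H2-K1 (1.90) had the highest mean signals and Il17rc (-1.85) the lowest.

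Antigen presentation was represented by H2-K1, a classical class I heavy chain, H2-T10, a class I molecule of the T region, Cd74, the invariant chain that guides class II molecules, and H2-DMa, a chain of the complex that loads peptide onto class II. H2-K1 averaged 1.90 ± 0.170, H2-T10 0.703 ± 0.130, Cd74 -0.243 ± 0.194 and H2-DMa -0.903 ± 0.148 (SD, n = 63), and Cd74 had the widest spread of the class. Class I genes are close copies of each other, and how far the H2-K1 and H2-T10 clones capture other class I transcripts was not tested. The mean of the class gave no ordered course with age. In CR mice it was 0.343 ± 0.109, 0.394 ± 0.0552 and 0.393 ± 0.0939 for 6, 16 and 24 months (SD, n = 9, 8 and 7). In AL mice it was 0.344 ± 0.0711 in the third week, 0.401 ± 0.119 in the sixth week, 0.337 ± 0.0908 at 6 months, 0.379 ± 0.0960 at 16 months and 0.341 ± 0.134 at 24 months (SD, n = 5, 5, 10, 10 and 9). All these groups overlapped. H2-K1 itself had its lowest, median and highest array at 1.59, 1.89 and 2.16 in CR mice of 6 months, at 1.66, 1.90 and 2.26 at 16 months, and at 1.71, 2.00 and 2.07 at 24 months. In AL mice these were 1.48, 1.91 and 2.11 at 6 months, 1.75, 1.94 and 2.16 at 16 months, and 1.43, 1.91 and 2.01 at 24 months. The stretch before 1 of 2 H2-K1 start sites is shown because it holds the letters GAANNGAAA, read on either strand, which are a short form of an interferon response element. In RefSeq promoter windows of 300 bases (GRCm38.p6), these letters stood in 7.52% of all 32851 windows. They stood in 4 of the 46 windows of the 34 members that had one, those of 3 genes (H2-K1, Cd82 and Stat6). The 250 bases before this start site lie on the minus strand at chr17:34000348-34000597, with the match in capitals.
H2-K1: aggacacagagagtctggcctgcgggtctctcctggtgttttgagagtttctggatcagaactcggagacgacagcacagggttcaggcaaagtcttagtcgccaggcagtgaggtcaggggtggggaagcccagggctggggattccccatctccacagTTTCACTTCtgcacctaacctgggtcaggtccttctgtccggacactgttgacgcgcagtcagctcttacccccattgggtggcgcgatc

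The interferon class held Ifngr2, a chain of the interferon gamma receptor, Irf9, the DNA-binding subunit of the complex formed after type I interferon, Stat3 and Stat6, which carry cytokine signals to the nucleus, the interferon-induced genes Ifi27 and Ifitm3, and Irf2bpl, a nuclear protein named for its likeness to binding partners of Irf2. Ifngr2 averaged 1.22 ± 0.120, Irf9 1.11 ± 0.130, Ifi27 0.665 ± 0.103, Stat3 0.204 ± 0.0846, Stat6 -0.00460 ± 0.112, Ifitm3 -0.643 ± 0.121 and Irf2bpl -0.751 ± 0.163 (SD, n = 63). The receptor chain and Irf9 thus lay above the mean signal of the array on all 63 arrays (0.71 or more and 0.75 or more), whereas Ifitm3 and Irf2bpl lay below it on all 63 (-0.29 or less and -0.40 or less). The mean of the class stayed between 0.170 and 0.33 in every AL and CR mouse of 6 to 24 months. It was 0.312 ± 0.0737 in third-week mice (SD, n = 5). The highest single value, 0.42, came from a third-week male whose array had the lowest median correlation of those kept, 0.921.

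Ifitm3, a membrane protein that restricts the entry of viruses, gave the smallest unadjusted p of any member in the comparison of old with young CR mice. In CR females the Z scores were -0.61, -0.62, -1.04, -0.84 and -0.72 at 6 months, -0.57, -0.67, -0.67 and -0.92 at 16 months, and -0.59, -0.53, -0.65 and -0.29 at 24 months. In CR males they were -0.71, -0.64, -0.68 and -0.54 at 6 months, -0.70, -0.65, -0.70 and -0.54 at 16 months, and -0.60, -0.54 and -0.47 at 24 months. Of the 7 oldest CR mice, 3 lay above the highest value of the younger CR mice, -0.54, and the other 4 lay inside their range. In AL mice the lowest, median and highest values were -1.03, -0.705 and -0.55 at 6 months, -0.75, -0.635 and -0.43 at 16 months, and -0.69, -0.63 and -0.49 at 24 months. The window around its start site is printed because Ifitm3 was the 1 member, of the 34 with a window, to hold 2 copies of GAAA with NN between them on either strand. This is the core of the interferon-stimulated response element. It stood in 1 of the 46 windows of members and in 3.44% of all windows. This form and GAANNGAAA share most of their letters but differ in spacing, and the second had no match in this window. A further search, for the Stat form TTCNNNGAA, matched 4 of the 46 windows of members, those of Ifitm3, Cd82, Cd160 and Tnfrsf19, and 8.3% of all windows. Its Ifitm3 match overlaps the second of the matches shown. Shown are 250 bases before and 30 after the start site, on the minus strand at chr7:141010715-141010994, with both matches in capitals.
Ifitm3: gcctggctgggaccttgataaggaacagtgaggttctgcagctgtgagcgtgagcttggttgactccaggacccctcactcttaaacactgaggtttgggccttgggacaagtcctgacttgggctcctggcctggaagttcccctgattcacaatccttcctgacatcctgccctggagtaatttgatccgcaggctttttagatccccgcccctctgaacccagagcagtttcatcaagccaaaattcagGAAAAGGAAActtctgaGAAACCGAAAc

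**Figure D2:**
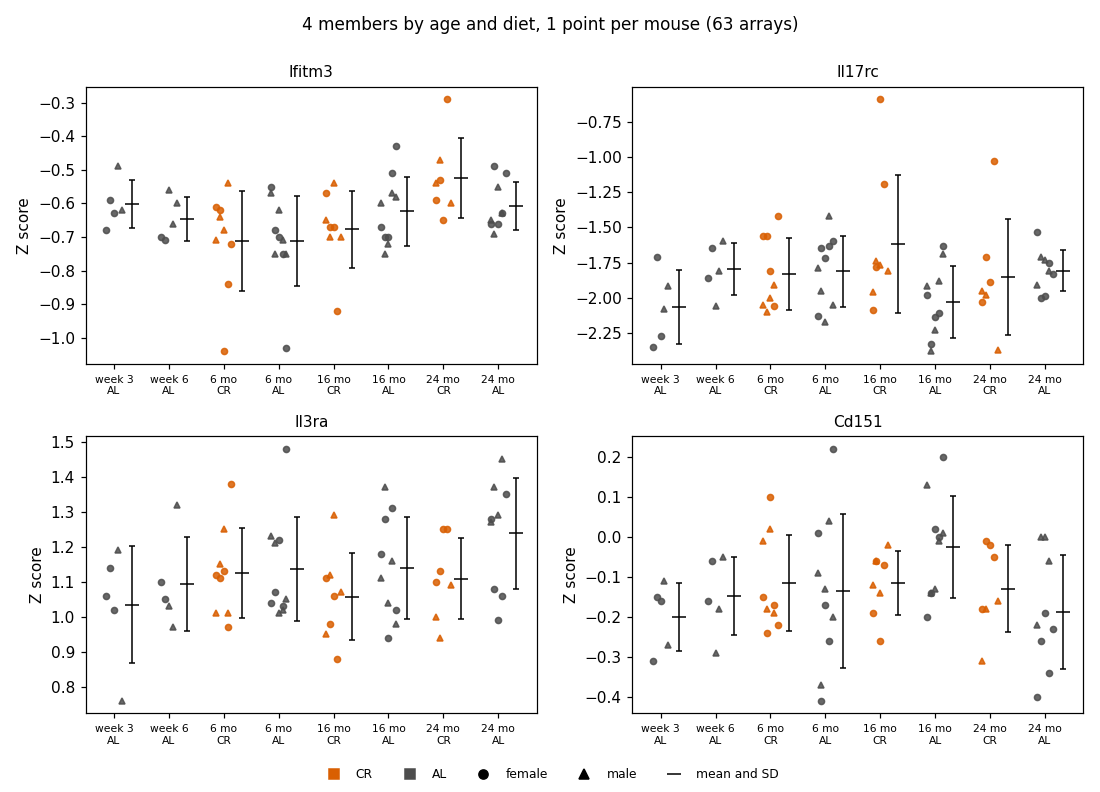
Z score of Ifitm3, Il17rc, Il3ra and Cd151 in each of 63 mice (circles, females; triangles, males) by age and diet, CR in orange and AL in grey, with the mean and SD of each group in black. The highest Ifitm3 value (-0.29) and the highest Il17rc value (-0.59) were both in CR females, and the groups overlap in all 4 panels.

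The 3 chains of complement C1q were measured by 1 probe each. The C1qa probe lay far below the mean signal, at -1.50 ± 0.225, while the C1qb and C1qc probes lay above it, at 0.620 ± 0.145 and 0.589 ± 0.110 (SD, n = 63), although the chains are built into 1 protein. Nor did the probes vary together: with the means of the sex, age and diet groups removed, the correlation over 63 arrays was 0.283 for C1qa with C1qb, -0.265 for C1qb with C1qc and -0.475 for C1qa with C1qc. These arrays share their normalization and a fixed total, and the correlations are given as description. For ages of 6, 16 and 24 months the medians of C1qa were -1.67, -1.45 and -1.38 in CR mice and -1.46, -1.40 and -1.57 in AL mice. No Toll-like receptor gene was among the members.

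The cytokine class held ligands, receptors and associated proteins. Of the ligands, Ccl27a, a chemokine best known from skin, averaged 1.11 ± 0.238, Cxcl12, which guides granule cell precursors in the developing cerebellum, 0.459 ± 0.123, and Il18, a cytokine matured by the inflammasome, -0.881 ± 0.183 (SD, n = 63). The Ccl27a name covers close gene copies in the mouse genome, so its signal is uncertain. Of the receptors, Il10ra averaged 1.35, Il3ra 1.13, Il27ra 0.920, Il1rl2, the receptor for interleukin 36, 0.893, Tnfrsf19 -0.461 and Il17rc -1.85. Il17rc, a chain of the interleukin 17 receptor, had the widest spread of all 42 members, with an SD of 0.311 and a range of -2.38 to -0.59. Tnfaip1, an adaptor of a ubiquitin ligase first found through its induction by tumour necrosis factor, had the highest mean signal, 2.01 ± 0.161. The class mean was 0.456 ± 0.0498, 0.503 ± 0.0911 and 0.486 ± 0.0672 in CR mice of 6, 16 and 24 months (SD, n = 9, 8 and 7). In AL mice it was 0.368 ± 0.0748 in the third week, 0.480 ± 0.0943 in the sixth, 0.460 ± 0.0517 at 6 months, 0.464 ± 0.0693 at 16 months and 0.498 ± 0.0427 at 24 months (SD, n = 5, 5, 10, 10 and 9). The third-week mice had the lowest class mean, with values of 0.247 to 0.44 that overlapped those of every older group. The value of 0.247 came from the male whose array had the lowest median correlation of those kept, 0.921.

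Among the 18 surface genes were 5 tetraspanins, Cd9, Cd63, Cd81, Cd82 and Cd151, which organize other proteins in the membrane. Cd81 averaged -1.07 ± 0.227, Cd63 -0.507 ± 0.117, Cd9 -0.298 ± 0.123, Cd151 -0.126 ± 0.134 and Cd82 0.0419 ± 0.199 (SD, n = 63). Cd34, a sialomucin of vessels and blood progenitors, averaged 1.65 ± 0.157, and Cd244a, a receptor of natural killer cells, 1.06 ± 0.182. Cd200, by which neurons restrain microglia, averaged -0.431 ± 0.196, and Cd200r3, a relative of its receptor, -0.656 ± 0.159. Cd24a, an anchored glycoprotein of immature neurons and leukocytes, averaged -1.14 ± 0.112. Cd320, which takes up transcobalamin, averaged -0.683 ± 0.198, and the sialomucin Cd164 -0.724 ± 0.222. Cd99l2, a membrane protein related to the adhesion molecule Cd99, had the lowest mean, -1.28, and the widest spread of the class, an SD of 0.244. The products of 2 members of the class, Cd2ap, which links membrane proteins to actin, and Cd2bp2, a spliceosome protein, act inside the cell and are not surface antigens. The class mean was -0.254 ± 0.0548, -0.257 ± 0.0286 and -0.253 ± 0.0595 in CR mice of 6, 16 and 24 months, and -0.271 ± 0.0618, -0.232 ± 0.0419 and -0.273 ± 0.0628 in AL mice (SD, n = 9, 8 and 7, and 10, 10 and 9).

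**Figure D3:**
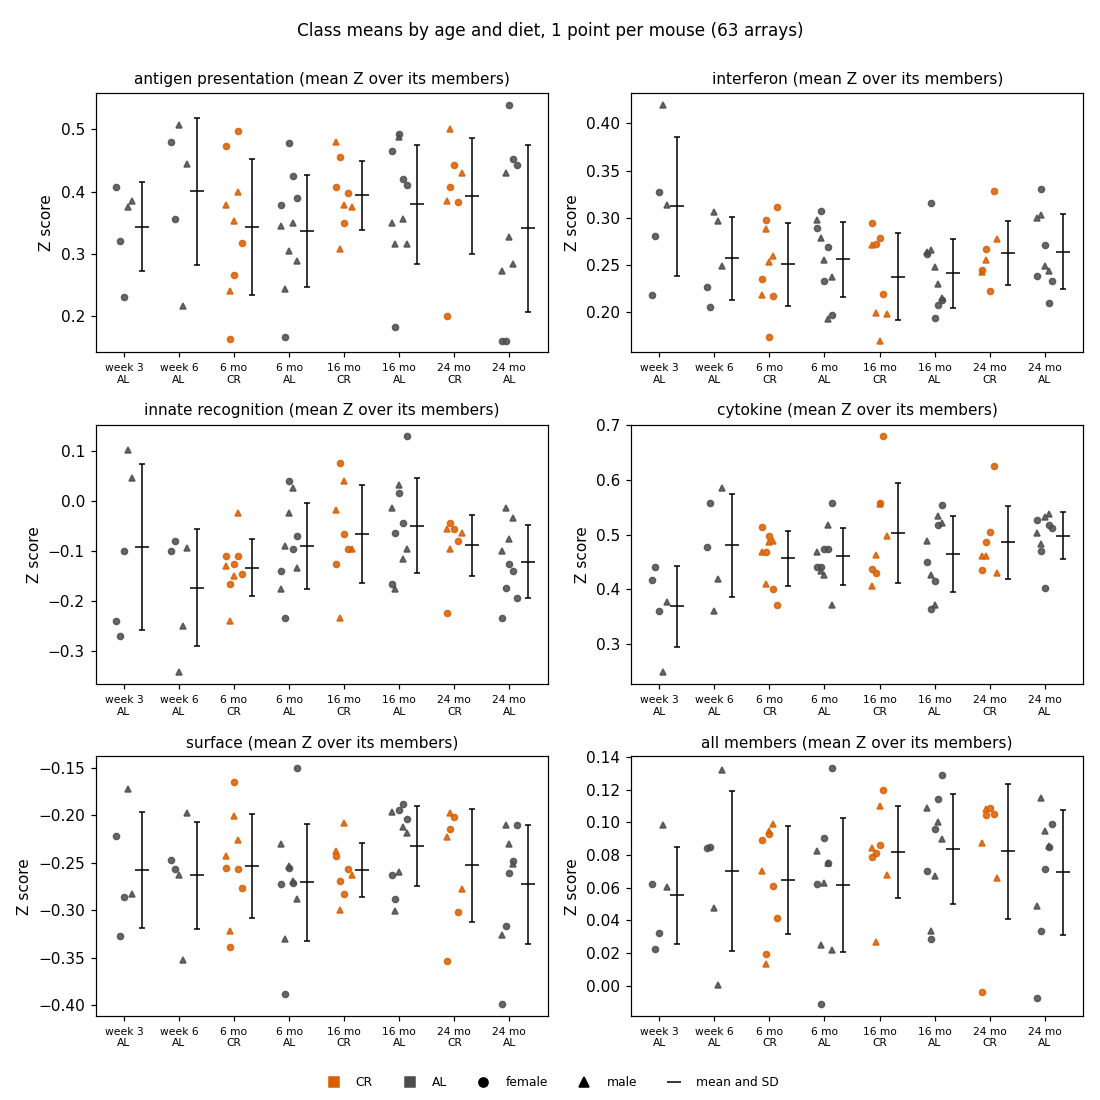
Mean Z score of each class and of all 42 members in each of 63 mice (circles, females; triangles, males) by age and diet, CR in orange and AL in grey, with group mean and SD in black. The class means of CR and AL mice overlap at every age, and the cytokine class mean is lowest in third-week mice (0.368).

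Changes with age and diet were tested for all 7782 features at once with limma, giving both sexes the same weight, and a feature was called where its p, adjusted over all features by the method of Benjamini and Hochberg, was under 0.05. No member was called in any of the 12 comparisons made, and the smallest adjusted p of a member was 0.366 for 6 months against the third week and 0.999 or more in the others. The percentages of all features called were 0, other than in the comparison of 6 months with the third week, where 32 were called (0.411%). Counts at an unadjusted p under 0.05 are therefore given beside the share of all features that passed in the same direction. The median 95% interval of a member reached 0.141 to either side for AL mice of 24 against 6 months. In simulated data with the same spread of each feature, the noise was independent between features and 200 of 7782 features were changed at once. For AL mice of 24 against 6 months, 1.5% of features changed by 0.15 were called, 60.5% of those changed by 0.3 and 97% of those changed by 0.6. Noise shared between features and a change of 1 member alone were not simulated.

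No immune gene was shown to differ between AL mice of 6 and 24 months. Between 24 and 6 months, 27 of the 42 members were higher and 15 lower, the median difference of the members was 0.0101 against -0.000375 for all features, and 0 members passed an unadjusted p under 0.05 in either direction (all features 1.04% higher and 1.45% lower). Ifitm3 was nearest to it among the higher members, with -0.610 at 24 months and -0.711 at 6 months, a difference of 0.101 ± 0.0548 (SE). Il3ra, the alpha chain of the interleukin 3 receptor, differed by 0.113 ± 0.0653 (SE), through 0.241 in males and -0.016 in females. Without 1 female of 6 months at -1.03 the Ifitm3 difference was 0.065, and without another 6-month female Ifitm3 was the 1 member that passed. Without the first of these females Il3ra passed, at 0.152. On the lower side, Cxcl12 differed by -0.0745 and by -0.0445 without 1 male of 6 months. Irf2bpl differed by -0.0815, by -0.127 without 1 male of 24 months and by -0.0503 without 1 female of 6 months. The class medians were 0.00875 for antigen presentation, 0.0160 for interferon, -0.0338 for complement, 0.0504 for cytokine and 0.00788 for surface genes.

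The middle age group of AL mice was set against both others. Between 16 and 6 months 0 members passed an unadjusted p under 0.05 (0.745% of features higher, 0.591% lower), and between 24 and 16 months 0 were higher (1.46%) and 2 were lower (2.45%), both of them tetraspanins. Leaving out 1 array at a time gave 0 to 4 members for 16 against 6 months, 4 without 1 female of 6 months (all features 60 to 408, against 104 with every array kept), and 0 to 4 for 24 against 16 months (166 to 412, against 305). Cd151 was -0.40, -0.26, -0.19, -0.34 and -0.23 in females and -0.22, 0, 0 and -0.06 in males of 24 months, against -0.20, -0.14, 0.02, 0 and 0.20 in females and 0.13, -0.14, -0.13, -0.01 and 0.01 in males of 16 months. In the older mice 4 of 5 females and 1 of 4 males lay below the lowest 16-month value, and the rest lay inside the 16-month range. The difference was -0.151 ± 0.0608 (SE, adjusted p = 1.00), -0.260 in females and -0.042 in males, and it was negative in all 5 sets of consecutively numbered arrays, at -0.275, -0.12, -0.04, -0.165 and -0.25, 1 of which compares 1 sex only. Without the male at -0.22 it was -0.126 and no longer passed. Cd63 averaged -0.575 at 24 months and -0.464 at 16 months, a difference of -0.111 ± 0.0545 (SE), which 11 of the 63 fits without 1 array took out of the passing members. Both lay on the other side in the comparison of 16 with 6 months, which shares the 16-month mice: Cd63 differed by 0.105 and Cd151 by 0.110. The same mice set the paired values of Il17rc, -0.218 between 16 and 6 months and 0.224 between 24 and 16 months, and of Ifngr2, -0.088 and 0.104. A single array weighed on Ifngr2, whose 16-month AL values ran from 0.71 in 1 female to 1.40 with the next lowest at 1.09. Without that female its differences were -0.0345 and 0.0505.

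In CR mice Ifitm3 was the member nearest to a change with age. It averaged -0.526 at 24 months and -0.704 at 6 months, a difference of 0.178 ± 0.0604 with a 95% interval of 0.0572 to 0.2996 (SE, adjusted p = 1.00). It was the 1 member higher at an unadjusted p under 0.05 (0.488% of all features), and 0 members were lower (0.630%). The difference was 0.251 in females and 0.106 in males, and it was positive within each of the 5 sets of consecutively numbered arrays, at 0.065, 0.10, 0.51, 0.13 and 0.43, 3 of which compare 1 sex only. Leaving out each of the 63 arrays in turn gave 0.141 to 0.201, all of them past an unadjusted p of 0.05, and with all 66 arrays it was 0.209. These fits and the array sets use the mice that gave Ifitm3 its small p, so they describe the difference and are not independent of its choice. On the lower side Cd24a differed by -0.0620, by -0.0366 without 1 male of 24 months, and Cd320 by -0.0973. Between 24 and 16 months Ifitm3 differed by 0.152 ± 0.0619 (SE), again the 1 higher member (0.797% of features), with 0 lower (1.71%). It no longer passed without the CR female of 24 months that measured -0.29, when the difference was 0.114, or without the CR female of 16 months that measured -0.92, when it was 0.116. C1qa differed between 24 and 6 months by 0.182 ± 0.103 (SE) and by 0.172 between 16 and 6 months, while C1qb and C1qc differed by -0.0159 and -0.0241 between 24 and 6 months. Between 16 and 6 months 0 members passed in either direction (1.43% higher, 0.707% lower), and Cd74 led the higher members with -0.143 at 16 months and -0.316 at 6 months, a difference of 0.173 ± 0.0991 (SE). Cd63 differed by -0.083, by -0.0509 without 1 male of 6 months, and Cd24a by -0.0816, with 0.0305 and -0.194 for its single probes. With the 3 left-out arrays restored, Cd63 differed by -0.685 between 16 and 6 months (adjusted p = 0.415) and Cd24a by 0.00125. Cd99l2 differed by 0.225 between 24 and 16 months, and by 0.128 without 1 male of 16 months at -2.06. Il17rc differed by -0.266 in the same comparison and Cd200 by -0.146, and these were -0.129 and -0.0696 without 1 CR female of 16 months each.

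**Figure D4:**
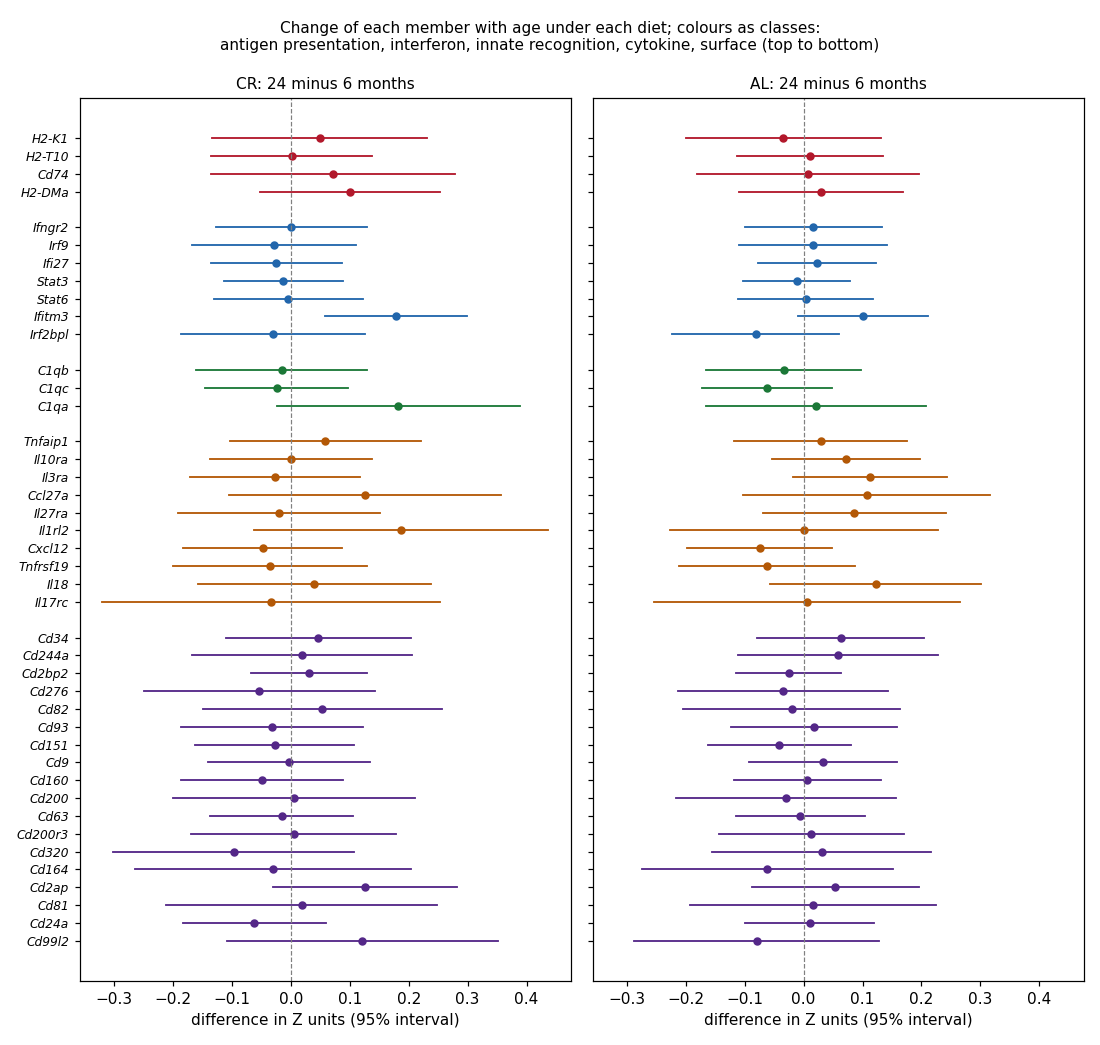
Difference of each member between 24 and 6 months in CR mice (left) and AL mice (right), in Z units, with its 95% interval, coloured and ordered by class. In CR mice the interval of Ifitm3 alone (0.0572 to 0.2996) does not reach 0, and in AL mice the intervals of all 42 members include 0.

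Whether diet altered the course with age was tested as the difference of both changes. No member passed an unadjusted p under 0.05 in either direction (0.398% of features higher, 0.501% lower). For Ifitm3, 0.178 in CR mice and 0.101 in AL mice gave a difference of 0.0774 with a 95% interval of -0.0862 to 0.241 (adjusted p = 1.00), and the change in 1 diet was thus not shown to differ from that in the other. The AL value was 0.065 without 1 female of 6 months. Cd99l2 gave 0.201, C1qa 0.162, Il3ra -0.140 and Cd320 -0.128, the last -0.0670 without 1 AL male of 24 months.

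Between the diets 1 immune gene passed an unadjusted p under 0.05 at each of the 3 ages, and it was a different gene each time. At 6 months Cd63 averaged -0.458 in CR and -0.569 in AL mice, a difference of 0.111 ± 0.0545 (SE), the 1 higher member (0.334% of features) with 0 lower (0.321%), and 11 of the 63 fits without 1 array took it out of the passing members. Cd9 differed by 0.0920, C1qa by -0.102 and Irf2bpl by -0.0698, and these were 0.0588 and -0.0515 without 1 AL female and -0.0363 without 1 CR female. At 16 months Il17rc was the 1 higher member (0.977%), and 0 were lower (1.16%). It measured -2.09, -1.78, -0.59 and -1.19 in CR females and -1.81, -1.96, -1.74 and -1.77 in CR males, against -1.98, -2.33, -2.14, -2.11 and -1.63 in AL females and -1.92, -2.38, -2.23, -1.88 and -1.69 in AL males. Only 2 CR females lay above the AL range, and the other 6 CR mice lay inside it. The difference was 0.413 ± 0.133 with a 95% interval of 0.146 to 0.680 (SE, adjusted p = 1.00). Without the female at -0.59 it was 0.276 and still passed, and within 4 sets of arrays it was 0, 0.315, 0.83 and 0.18. Cd74 differed by 0.104, by 0.0527 without the same female, Cd24a by -0.0969 and Cd151 by -0.0890.

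At 24 months Il3ra was the 1 member lower in CR mice (1.12% of features lower), and 0 were higher (1.13%). It measured 1.10, 1.13, 1.25 and 1.25 in CR females and 1.09, 1.00 and 0.94 in CR males, against 1.28, 1.08, 0.99, 1.06 and 1.35 in AL females and 1.27, 1.37, 1.29 and 1.45 in AL males. The CR males lay below the AL males, while the CR females lay within the AL females' range. How many of all features separate such small groups of males was not counted, and Il3ra was named for its small p. The difference was -0.152 ± 0.0720 (SE, adjusted p = 0.999), -0.335 in males, whose ages differed between the diets, and 0.0305 in females, and the difference between the sexes was not tested. It was -0.0995 with all 66 arrays and did not pass, 8 of the 63 fits without 1 array also took it out, and within 4 sets of arrays it was -0.18, 0.14, -0.08 and -0.10. Cd320 differed by -0.150, by -0.0893 without 1 AL male, Cd2bp2 by 0.0948 and Cd99l2 by 0.205, the last through 0.508 in males and -0.099 in females.

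The study first selected genes by a difference of at least 1.5 standard deviations of all differences, an average Z score over both groups above 0 and an unadjusted p under 0.05, and its later model of age, gender and diet was not applied here. Members averaging below 0 could not pass whatever their difference, among them Ifitm3 (-0.643), Il17rc (-1.85), Cd63 (-0.507) and Cd151 (-0.126). Over the 63 arrays 20 of the 42 members averaged above 0. By this first rule 1 member passed in CR against AL mice of 24 months, Il3ra, beside 0.321% of features, and 1 in AL mice of 6 months against the third week, Ccl27a, beside 4.07%. In the other comparisons of AL mice 0 members passed, beside 0.116% of features for 16 against 6 months, 0.771% for 24 against 16 months, 0.475% for 24 against 6 months and 0.398% for 6 months against the sixth week. In those of CR mice 0 passed, beside 0.450% for 16 against 6 months, 0.424% for 24 against 16 months and 0.0900% for 24 against 6 months. In those of diet 0 passed, beside 0.0257% at 6 months, 0.668% at 16 months and 0.0643% for the difference in the change.

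The largest number of members at an unadjusted p under 0.05 came from AL mice of 6 months against the third week, with 2 higher (5.69% of features) and 2 lower (5.00%). Tnfaip1 averaged 1.98 at 6 months and 1.79 in the third week, a difference of 0.189 ± 0.0878 (SE, adjusted p = 0.457). The lowest, median and highest values of Ccl27a were 0.64, 1.07 and 1.52 in 6-month mice, against 0.99, 0.97 and 1.02 in third-week females and 0.23 and 1.01 in third-week males. Its difference was 0.266 ± 0.126 (SE, adjusted p = 0.457). Cd99l2 had a lowest, median and highest value of -1.46, -1.35 and -0.95 in 6-month mice, against -0.63, -1.46, -1.18, -0.55 and -1.16 in third-week mice, a difference of -0.324 ± 0.125 (SE, adjusted p = 0.366). Cd63 differed by -0.142 ± 0.0657 (SE, adjusted p = 0.457). The third-week male with 0.23 for Ccl27a and -0.55 for Cd99l2 had the lowest median correlation of the arrays kept, 0.921. Without it the differences were 0.0713 for Ccl27a, -0.171 for Cd99l2 and 0.146 for Tnfaip1, and none of these passed an unadjusted p of 0.05. Without the other third-week male, which left that array as the only male of its age, 3 members were called: Ccl27a with 0.461 (adjusted p = 0.0303), Cd99l2 with -0.476 (adjusted p = 0.0273) and Il1rl2 with 0.604 (adjusted p = 0.00123). Il1rl2 measured -0.28 in the first of these males and 1.13 in the second.

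Against the sixth week, AL mice of 6 months had 1 member higher (1.14% of features) and 0 lower (0.578%). Cd2ap averaged -0.845 at 6 months and -1.02 in the sixth week, a difference of 0.171 ± 0.0850 (SE), and 48 of the 63 fits without 1 array put its p at 0.05 or more. Cd164 differed by 0.201, by 0.101 without 1 sixth-week male, Cd9 by -0.121 and H2-T10, with 0.673 at 6 months and 0.785 in the sixth week, by -0.112. The H2-T10 difference was -0.177 without 1 sixth-week male and -0.067 without 1 sixth-week female.

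Several members had more than 1 probe, and these probes did not lie at the same level. The Cd2bp2 probes averaged -0.288 and 1.79, those of Cd82 0.800 and -0.717, those of Cd24a -0.870 and -1.40, and those of Stat3 0.719, 0.484 and -0.591. A gene's mean thus rests on probes that stand on both sides of the mean signal in 3 of these 4 genes. The Cd82 probe at -0.717 had an SD of 0.337 and the one at 0.800 an SD of 0.0976 over the same arrays. With each probe fitted alone, no member was called in any of the 12 comparisons.

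**Figure D5:**
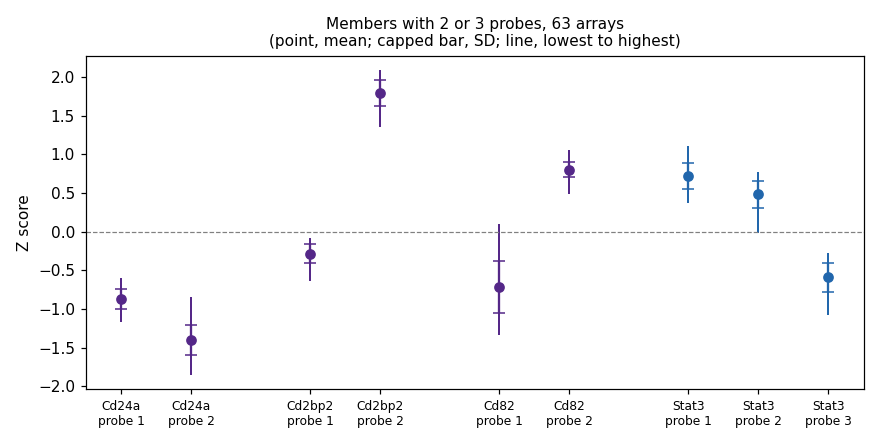
Z score of each probe of the 4 members with 2 or 3 probes over 63 arrays (point, mean; capped bar, SD; thin line, lowest to highest array). The probes of Cd2bp2, Cd82 and Stat3 lie on both sides of 0, the mean signal of the array.

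How the members varied together from mouse to mouse was described over the 63 arrays after removing group means. The median correlation of the 861 pairs was 0.0236, of the 228 pairs within a class 0.0718 and of the 633 pairs between classes 0.00296. The highest were Cd34 with Tnfaip1 at 0.921, Cd82 with Cd93, a lectin-like receptor, at 0.811, and Il10ra with Irf9 at 0.801, and H2-K1 with Tnfaip1 stood at 0.795. The lowest were H2-K1 with Irf9 at -0.698 and H2-K1 with Tnfrsf19 at -0.691. All pairs share the normalization of the arrays, and technical differences between arrays were not separated from differences between mice.

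Partner genes of the same pathways, none of them a member, were listed by role. Of these, 5 of 25 antigen processing genes, 13 of 52 interferon response genes, 12 of 40 genes of Jak and cytokine signalling, 9 of 38 of NF-kB signalling and 5 of 25 complement genes were measured, and none was called in the 12 comparisons. Among the 13 interferon response genes 0 passed an unadjusted p under 0.05 between 24 and 6 months in CR mice (0.488% of features higher, 0.630% lower). In AL mice 0 were higher (1.04%) and 1, Shisa5, was lower (1.45%). In the other comparisons 1 of them, Shisa5, was lower for AL mice of 24 against 16 months (2.45% of features). For CR against AL mice at 24 months 1, Nmi, was higher (1.13%). For 6 months against the third week 1, Gbp2, was lower (5.00%), and 2, Lgals3bp and Shisa5, were higher against the sixth week (1.14%). Of the Jak and cytokine signalling genes 1, Lifr, was lower for AL mice of 16 against 6 months (0.591% of features). For 24 against 16 months 1, Tgfbr1, was higher (1.46%). For 6 months against the sixth week 1, Lifr, was higher (1.14%), where 1 NF-kB signalling gene, Map3k7, was higher as well. None of the antigen processing and complement genes passed in the 12 comparisons. Of microglia and macrophage markers 4 of 28 were measured, Fcer1g, Fcgr3, Fcgr1 and Selplg. Their mean over the list lay between -0.09 and 0.135 in CR mice of 24 months and between -0.205 and 0.1 in CR mice of 6 months, the comparison in which Ifitm3 was higher, and 0 of the 4 passed an unadjusted p under 0.05 there. Of these markers 1, Fcgr3, was higher for CR mice of 16 against 6 months (1.43% of features). For AL mice of 6 months against the third week 1, Fcgr1, was higher (5.69%). Of 9 granulocyte markers 2 were measured and none passed. Of 9 blood genes 4 were measured. Their list means were -0.459 to -0.203 in CR mice of 24 months and -0.399 to -0.0990 in CR mice of 6 months. Of these 4 genes Alas2 alone passed there, on the lower side (0.630% of features). Alas2, with a mean Z score of -1.21, also gave every other pass of a blood gene. It was higher for AL mice of 16 against 6 months (0.745% of features). It was lower for 24 against 16 months (2.45%), where Cd151 and Cd63 passed. Among CR mice it was lower for 24 against 16 months (1.71%), where Ifitm3 passed. It was lower for the difference in the change between diets as well (0.501%). Hba-a1, Hba-a2 and Slc4a1 passed in none of the 12 comparisons. The blood list means ran from -0.459 to -0.203 in CR mice of 24 months and from -0.27 to -0.0306 in those of 16 months, and from -0.476 to -0.0402 in AL mice of 24 months and -0.360 to -0.0419 in those of 16 months. The meningeal genes, 8 of 11 measured, had means of 0.181 to 0.321 in CR mice of 24 months and 0.196 to 0.368 in those of 6 months. Between these 2 groups 2 meningeal genes passed on the lower side (0.630% of features). For CR against AL mice at 24 months 1 was lower (1.12%), where Il3ra passed and the AL means were 0.149 to 0.338. Between 6 months and the third week in AL mice 2 meningeal genes were higher (5.69% of features) and 1 of them was called (0.411%). The part of these other cell types in the member values was not tested.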

How the data were processed

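Cerebellar RNA of 66 mice was hybridized to 1 filter each of a cDNA clone collection; only its B filter was used here. The authors extracted phosphor images with ArrayPro and deposited a Z score per probe and array, with mean 0 and SD 1 over the 8448 probes. The use of logarithms before the transformation and the handling of background are not given in the sources used here. Precision is limited by the number of arrays. The platform annotation gave 1 gene symbol to 4875 probes, several to 224 and none to 3349. The annotation of the clones was used as given. The probes of a gene were averaged.

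Groups came from the labels (sex, age and diet). A linear model with 1 mean for each of 16 groups was fitted to 63 arrays with limma 3.58.1 in R 4.3.3 (47 residual degrees of freedom) and moderated by eBayes. The p-values are two-sided and set a difference against the spread between mice of a group, which includes differences between their arrays. Arrays with a median correlation under 0.9 were left out. The fit was tested on simulated data. Members, classes and lists were chosen with earlier results of these data known. Members were named if called, if among the 2 smallest p-values of a comparison in each direction, by the highest 3 or lowest mean or the widest SD of a class, or for having several probes; the remaining members are described by level only. Alternatives were all 66 arrays, a correction for position on the membrane, quantile normalization, the set of consecutive arrays as a block, array weights, probes above mean signal only, only the groups compared, eBayes with trend and robust settings, females alone, single probes, the study's criteria and leaving out each array in turn. Fits without 1 array and differences within array sets use the same mice by which a member was named, so they only describe it. Promoter windows came from RefSeq (GRCm38.p6); 34 of 42 members had one, and C1qa, Cd24a, Cd74, Cd93, H2-T10, Ifi27, Il10ra and Il27ra did not.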

Additional observations from a re-analysis of the deposited data

Results flagged for a closer look

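In 71 sets of values, each of 1 of 21 members in the 5 to 10 mice of 1 age and diet, 7 held a single mouse far from the others of its age and diet. The cutoff used flags about 1 in 20 independent sets. These sets share mice and their members were named by small p-values, so 7 of 71 cannot be set against that rate. Of the 7, the first 3 came from CR mice of 16 months. Cd24a was -0.965 in 1 male, next to -1.17 and a lowest value of -1.33. Cd99l2 was -2.06 in the same male, next to -1.38, and Ifitm3 was -0.92 in 1 female, next to -0.70. In AL mice, 1 female of 6 months was lowest for Ifitm3, at -1.03 next to -0.75, and highest for Il3ra, at 1.48 next to 1.23. Ifngr2 was 0.71 in 1 female of 16 months, next to 1.09. Ccl27a was 0.23 in 1 third-week male, next to 0.97.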

How the results depend on the processing

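The count of members called was 0 in all 12 comparisons under all 66 arrays, the position correction, quantile normalization, the array set as a block, array weights (whose estimation stopped before full convergence), only probes above the mean signal, only the groups compared, eBayes with trend and robust settings, single probes and, for the 3 comparisons of 24-month CR mice, females alone. By the study's criteria it was 1 for CR against AL mice at 24 months and 1 for 6 months against the third week. Leaving out 1 array at a time gave 0 to 3 members for 6 months against the third week and 0 in every other comparison; the 3 came without the second third-week male. In that comparison the features called were 32 in the fit reported, and 0 with all 66 arrays, quantile normalization or only the groups compared, 42 with the position correction, 45 with the array set as a block, 7 with array weights, 55 with probes above mean signal only and 40 with trend and robust settings, and leaving out 1 array gave 0 to 572, with 1 left without the first third-week male and 572 without the second. Counts of members at an unadjusted p under 0.05 moved more. Over the settings other than leaving out 1 array they were 0 to 2 in AL mice for 16 against 6 months, 0 to 5 for 24 against 16 months and 0 to 4 for 24 against 6 months; in CR mice 0 to 4, 0 to 7 and 0 to 3; in CR against AL mice 0 to 1, 0 to 3 and 0 to 3 at 6, 16 and 24 months; 0 to 1 for the difference in the change; and 2 to 4 and 0 to 3 against the third and the sixth week. They moved past 1.5 times in 11 comparisons with array weights, 8 with all 66 arrays, 7 with the block of array sets and 7 with the filter on signal. The largest of these counts came with more passing features among all 7782. The 7 members for CR mice of 24 against 16 months came with array weights, beside 1163 features against 195 in the fit reported. In AL mice the 5 for 24 against 16 months came with the array set as a block (589 features against 305). The 4 for 24 against 6 months came with array weights (1286 against 194). Leaving out 1 array gave 0 to 6 members over the 12 comparisons, 6 for 6 months against the third week, where 832 of 7782 features passed in the fit reported. Of the 48 named differences, Cd24a between 16 and 6 months in CR mice turned to 0.00125 with all 66 arrays, Cd200 between 24 and 16 months in CR mice to 0.0226 with array weights, and among females alone Cd99l2 and Il3ra in CR against AL mice at 24 months turned to -0.099 and 0.0305. The cause was not tested. Of the single probes, 1 of Cd24a was at 0.0305 for CR mice of 16 against 6 months. The other alternatives that were fitted to named differences, leaving out single arrays included, kept their sign, and the filter on signal measured 20 of the 42 members. The median of the complement class in CR against AL mice at 16 months was 0.048 with all 66 arrays and -0.0405 without the 3 arrays. In the simulation, with 200 features changed at once, differences of 0.15 were mostly too small to be called with these numbers of arrays. No paired analysis was possible because the labels give no replicate numbers shared between groups; the sets of consecutive arrays, whose mice the labels do not pair, were fitted as a block.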
